A study of Aspergillus terreus with 6 samples.

Results

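Of the 10784 annotated genes in the count table of an Aspergillus terreus RNA-seq series, 328 (3.04%) had no count in any of the 6 libraries, and these silent genes are described here. They were selected on the counts themselves: an identifier that begins with Aterreus0G and a count of 0 in every library. All 328 were also listed at an FPKM (a level scaled for gene length and sequencing depth) of 0 in every library. The whole table holds 11680 features, and of the 896 that carry a new-gene identifier, 0 were silent. How these 896 features were found is not given. If reads of these libraries defined them, that 0 was fixed in advance and is not a result about them. None of the silent genes can be given a name or a function: 0 of the 328 identifiers matched the 10551 genes of the RefSeq table for strain NIH2624 (assembly ASM14961v1), as did 0 of all 11680.

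The libraries came from mycelia of the A. terreus strain AT2022, labelled WT, taken on day 2 of fermentation. The metal group (n = 3) is labelled as treated with ZnSO4·2H2O at 0.25 g/L and FeSO4·2H2O at 0.40 g/L. The control group (n = 3) is labelled as untreated, with 0.15 g/L and 0.16 g/L of the same salts named in that label. The labels' treatment protocol, shared by all 6 samples, names taurine and no metal salt, so what the groups share or differ in beyond the sample labels is not known. Only 1 strain and 1 day were sampled, and no medium other than those of the metal and control groups. The labels do not say that the samples of a group were separate cultures, so tests here measure the spread between samples, which may be technical. The labelled tissue could not be checked against marker genes, since no identifier is paired with a name.

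A. terreus is a filamentous fungus grown for itaconic acid and is also the source of the statin lovastatin. Filamentous fungi carry many genes that are not transcribed in a given culture. Genes of secondary metabolism lie side by side in clusters, and many such clusters are quiet in laboratory media. Genes for conidia, sexual development, rare carbon sources and transposons can likewise be off in vegetative mycelium. A gene model with no transcript can also be an error of gene prediction. Which of these kinds the 328 genes belong to was not tested.

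Total counts per library ran from 32607821 to 35124387 in the metal group and from 25097838 to 31981700 in the controls, 187775019 in all. For a gene at 0 in every library, 3 counts of that total give an upper limit of 0.0160 CPM (counts scaled to library size). Within single libraries the limit was 0.0854 to 0.0920 CPM in the metal group and 0.0938 to 0.120 CPM in the controls. These limits cover counting error only. Low counts were not like independent single reads: over the annotated genes, a value of 2 occurred 747 times, a value of 1 only 466 times, a value of 4 occurred 644 times and a value of 3 only 507 times. The limits may therefore be too narrow. Gene lengths of the silent genes are not known, so no limit per length can be given. Control 2 stood apart from its group: its log2 CPM values had a mean Pearson correlation of 0.987 with the metal libraries and 0.935 with controls 1 and 3 (across 9698 genes, which are not independent replicates). Controls 1 and 3 correlated at 0.973 with each other. Without control 2, 349 annotated genes were at 0 in the other 5 libraries.

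Many further annotated genes had only a few counts. Whether the silent genes are the end of that series or a class apart was not tested. Just outside the rule, 48 annotated genes had a total of 1 count over the 6 libraries, 95 had 2 counts and 55 had 3 counts. A total of 1 to 10 counts was found in 517 genes, which is more genes than were silent. Of these 517, 241 had all their counts in 1 library and 276 had counts in 2 or more libraries. At the other end, 9071 annotated genes (84.1%) had a count in all 6 libraries, with a median total of 4185 counts. Between the extremes, 259 genes were detected in 1 library, 239 in 2, 225 in 3, 251 in 4 and 411 in 5.

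Each further library took genes out of the silent class, by less each time. The mean number of annotated genes without a count was 967.8 for a single library (793 to 1114). It was 658.0 for pairs of libraries and 516.6 for sets of 3. Sets of 4 left 430.3 and sets of 5 left 371.2 (349 to 388), against 328 for all 6. The series of means had not levelled off at 6 libraries, so the number 328 belongs to this depth and this number of samples.

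Genes seen in a single library show what kind of gene lies directly beyond the rule. Their median count in that library was 3, and 18 of the 259 had more than 10 counts. The highest was Aterreus0G085400, with 384 counts in metal 3 and 0 in metal 1, metal 2 and all 3 controls. Next in the metal group was Aterreus0G091820, with 62 counts in metal 1 and 0 in the other 5 libraries. On the control side, Aterreus0G033460 had 96 counts in control 1, and Aterreus0G101390 had 18 counts in control 1, both with 0 in the other 5 libraries. Each of these 4 genes thus rests on 1 library, with no second sample of its group at 1 count or more. The number of genes seen only there was 39, 57 and 60 in metal 1, 2 and 3, and 42, 21 and 40 in control 1, 2 and 3.

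Whether silence differed between the groups was examined with the genes that are at 0 in some libraries. In metal libraries 1, 2 and 3, 1060, 793 and 815 annotated genes had no count, against 947, 1114 and 1078 in controls 1, 2 and 3. The 328 silent genes made up 30.9% to 41.4% of these in the metal libraries and 29.4% to 34.6% in the controls. Metal 1 lay with controls 2 and 3, and the groups overlapped. The mean was 889 ± 148 genes in the metal group and 1046 ± 87.9 genes in the controls (SD, n = 3 each), a difference of -157 genes (exact two-sided permutation p = 0.2, where the smallest possible p is 0.1). Depth did not order the libraries. Metal 1 had 32733231 annotated counts and 1060 genes at 0, while metal 2 had 32119833 annotated counts and 793 genes at 0. With every library thinned to 24792193 annotated counts, the depth of control 3, the expected numbers at 0 were 1088.5, 826.1 and 859.5 in metal 1, 2 and 3 and 965.0, 1127.6 and 1078.0 in control 1, 2 and 3. That difference was -132.2 genes (exact two-sided permutation p = 0.3, n = 3 each).

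**Figure D1:**
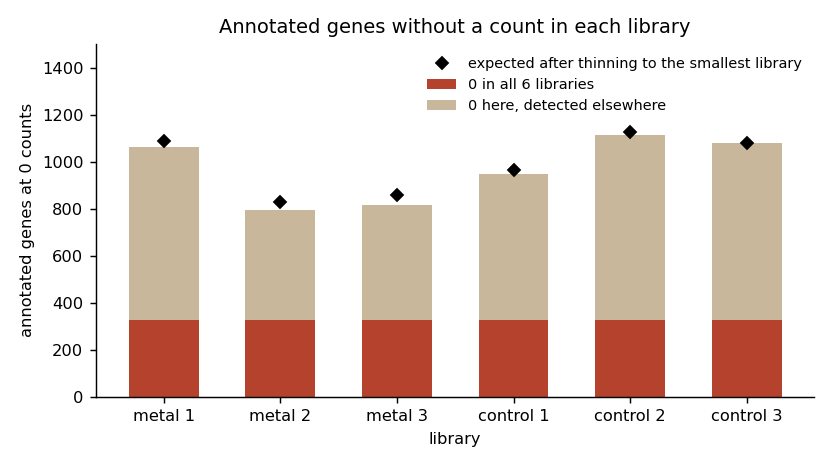
Annotated genes with 0 counts in each library, metal libraries on the left and controls on the right. The lower part of each bar is the 328 genes at 0 in all 6 libraries, the upper part the genes at 0 in that library and detected elsewhere, and diamonds give the number expected after thinning to the smallest library. Metal 2 and metal 3, at 793 and 815, are the lowest, and metal 1, at 1060, lies with controls 2 and 3.

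Few genes switched between silent and detected by group. The 3 metal libraries were all at 0 and the 3 controls all at 1 count or more in 6 genes. The reverse, 0 in all controls and 1 or more in every metal library, held in 27 genes. With 3 or more counts required in each detected library, these numbers were 5 and 12. The median total of the switching genes was 18.5 and 15.0 counts, so they lie close to the edge of detection. Leaving out control 2 gave the highest numbers: 26 genes were at 0 in all metal libraries and detected in controls 1 and 3, and 65 were at 0 in controls 1 and 3 and detected in every metal library. Without any other single library the numbers ran from 11 to 17 and from 40 to 59, so removal of any library raised both. With fewer libraries required to agree, neither number can fall. No test was made of these counts.

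The identifiers allow the silent genes to be placed in an order. The digits after Aterreus0G, divided by 10, run from 1 to 10784 with 0 numbers absent and 0 identifiers off that step. The files do not say that this order follows the genome. Within it the 328 silent genes fell into 289 runs: 256 stood alone, 27 runs held 2 genes and 6 runs held 3 genes. The mean over all permuted placements of 328 genes on 10784 numbers, computed in closed form, is 308 genes alone, 9.35 runs of 2 and 0.283 runs of 3. There were 39 pairs of consecutive silent numbers, against a permuted mean of 9.95. A silent number on at least 1 side was found for 72 of the 328 silent genes (22.0%) and for 563 of the 10456 detected annotated genes (5.38%). These values describe genes chosen on their counts, and no p-value was computed for them.

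**Figure D2:**
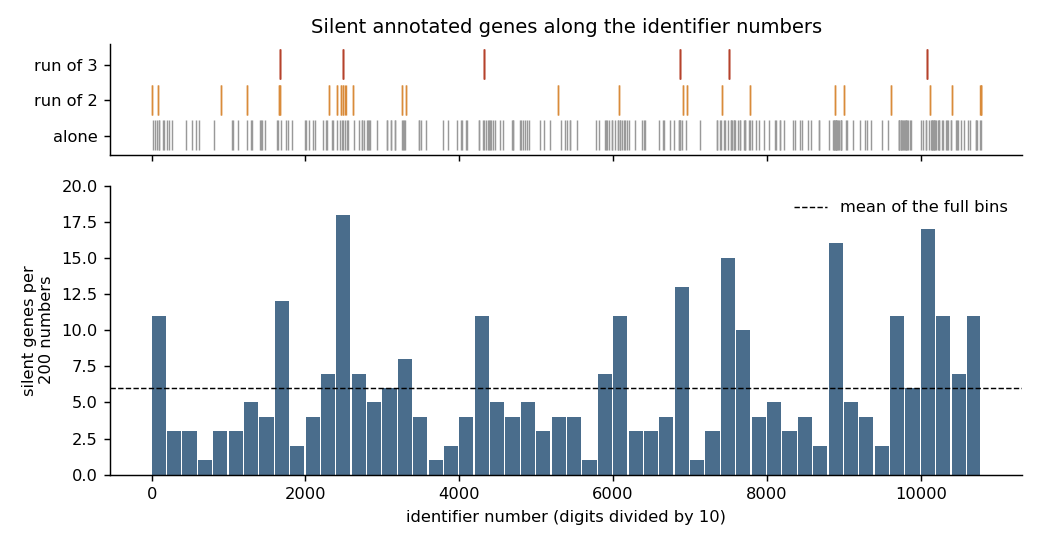
Silent genes along the identifier numbers. The upper panel marks each gene by the length of the run it stands in, and the lower panel gives the number of silent genes in bins of 200 numbers, with a last bin of 184 numbers and a dashed line at the mean of the full bins (5.98). The bins run from 1 to 18 silent genes, with the highest at numbers 2401 to 2600, and the 6 runs of 3 lie far from each other.

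Gaps between successive silent genes were more often short, and also more often long, than the mean over permuted placements. The 327 gaps had a mean of 32.97 numbers and a median of 17 numbers. Gaps of at most 5 numbers occurred 87 times, against a permuted mean of 46.8, and gaps of at most 10 numbers 122 times, against 86.9. Gaps of over 100 numbers occurred 25 times, against 14.7, and gaps of over 150 numbers 10 times, against 3.08. The widest lay between Aterreus0G055350 and Aterreus0G057760, with 240 detected genes in a row. Next came the 228 genes between Aterreus0G035640 and Aterreus0G037930 and the 222 between Aterreus0G071310 and Aterreus0G073540. Over 53 full bins of 200 numbers, the number of silent genes ran from 1 to 18 with a median of 4, and 12 bins with 10 or more held 156 silent genes (47.6%). The first 200 numbers held 11 silent genes and the last 184 numbers also held 11.

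The excess of silent genes near a silent gene faded with distance. At a distance of 1 number, 11.9% of the genes looked at were silent. The share was 6.42% at 2 numbers, 6.74% at 3 and at 4, and 4.91% at 5. The fall was not steady: the share was 5.53% at 6 numbers, 6.45% at 7 and 5.54% at 8. It was 3.08% at 9 numbers and 2.77% at 10, close to the 3.04% of all annotated genes. From 20 to 500 numbers it varied between 2.17% and 4.33%. The same genes enter these shares at several distances, so neighbouring points are not independent.

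**Figure D3:**
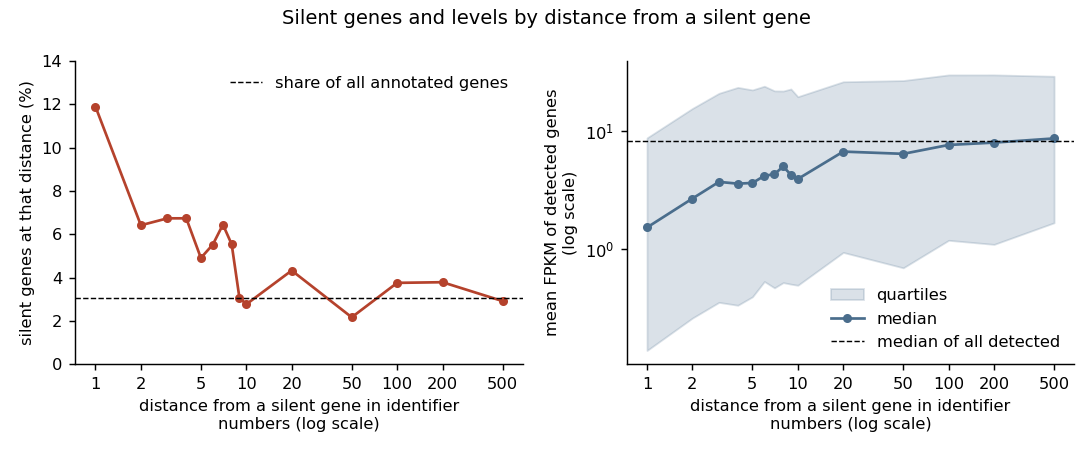
Left, the share of annotated genes that were silent at a given distance in identifier numbers from a silent gene, with the share of all annotated genes as a dashed line. Right, the median and quartiles of the mean FPKM of the detected genes at that distance, with the median of all detected annotated genes as a dashed line, and a log scale on both axes. The share is 11.9% at 1 number and 2.77% at 10, and the median level is 1.53 FPKM at 1 number and 8.72 FPKM at 500.

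Detected genes beside a silent gene were themselves at low levels. The 563 detected genes at a distance of 1 had a median of 1.53 FPKM (quartiles 0.138 and 8.81), against 8.93 FPKM (quartiles 1.44 and 33.2) in the other 9893 detected annotated genes, as means over the 6 libraries. In CPM, which is not scaled by length, the medians were 2.66 and 16.8. A level under 1 FPKM was found in 46.0% of the genes beside a silent gene and in 21.7% of the others. At 10 FPKM or more were 22.9% and 47.8%, and at 100 FPKM or more 3.02% and 10.3%. A count of 0 in at least 1 library was found in 181 of the 563 (32.1%), against 12.2% of the others. For the 15 detected genes with a silent gene on both sides the median was 0.225 FPKM. The side made little difference: the median was 1.63 FPKM for the 289 genes on the lower-numbered side and 1.41 FPKM for the 289 on the higher-numbered side.

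The low levels reached further than the direct neighbour. The median was 2.70 FPKM at 2 numbers, 3.73 FPKM at 3 numbers, 5.04 FPKM at 8 numbers and 3.95 FPKM at 10 numbers. It was 6.74 FPKM at 20 numbers, 6.45 FPKM at 50 numbers and 7.68 FPKM at 100 numbers, against 8.34 FPKM for all detected annotated genes. The rise with distance was not steady. Thus at 10 numbers, where the share of silent genes was near that of all genes, the median level was still below that of all detected genes.

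**Figure D4:**
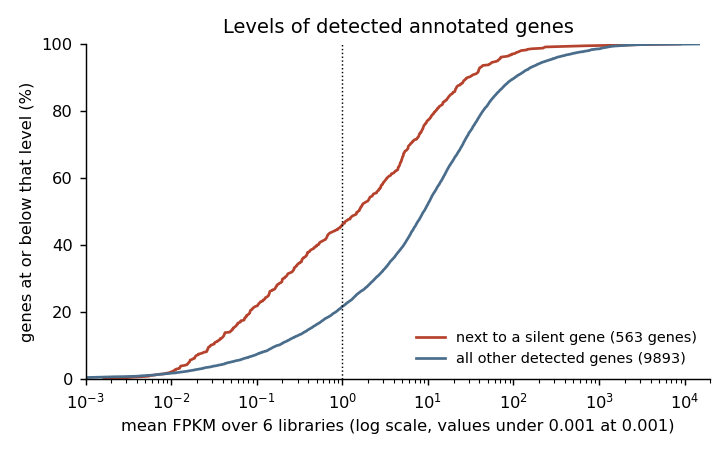
Cumulative share of detected annotated genes by mean FPKM over the 6 libraries (log scale), for 563 genes next to a silent gene and 9893 other genes, with a dotted line at 1 FPKM. At that line the curves stand at 46.0% and 21.7%.

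The 5 longest runs, taken in the order of their numbers, were all of 3 genes, and their flanks differed. Aterreus0G016690 to Aterreus0G016710 lay between Aterreus0G016680 and Aterreus0G016720. The lower flank was at 0, 1.21 and 0.789 FPKM in metal 1, 2 and 3 and at 0.152, 2.80 and 0.337 FPKM in controls 1, 2 and 3. The upper flank was at 4.23, 5.64 and 4.90 FPKM in metal 1, 2 and 3 and at 4.46, 5.12 and 5.91 FPKM in controls 1, 2 and 3, so it was detected evenly in all 6 while the 3 genes before it had no count. Aterreus0G024890 to Aterreus0G024910 had flanks at means of 0.475 FPKM (Aterreus0G024880) and 0.225 FPKM (Aterreus0G024920). Beside Aterreus0G043170 to Aterreus0G043190, the lower flank Aterreus0G043160 was at 2.77, 5.15 and 4.21 FPKM in metal 1, 2 and 3 and at 4.48, 6.99 and 6.83 FPKM in controls 1, 2 and 3. Its upper flank Aterreus0G043200 averaged 0.373 FPKM. The flank Aterreus0G024880 was at 0.875, 0.503 and 0.770 FPKM in metal 1, 2 and 3. In controls 1, 2 and 3 it was at 0.0866, 0.280 and 0.337 FPKM. Its edgeR adjusted p was 0.568 with all 6 libraries and 0.114 without control 2, so neither fit called it.

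The other 2 of these runs had almost silent flanks. Aterreus0G068710 to Aterreus0G068730 lay between Aterreus0G068700, with 6 counts in control 1 only, and Aterreus0G068740, with 5 counts in control 3 only. Aterreus0G075060 to Aterreus0G075080 lay between Aterreus0G075050, at a mean of 0.167 FPKM, and Aterreus0G075090, at a mean of 0.0726 FPKM. Aterreus0G075090 was at 0 in all metal libraries and in control 2, and at 0.208 and 0.227 FPKM in controls 1 and 3. The sixth run of 3, Aterreus0G100770 to Aterreus0G100790, had flanks at means of 0.0104 and 2.67 FPKM.

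One stretch was nearly silent over a longer distance. From Aterreus0G068630 to Aterreus0G068740, 12 consecutive genes had at most 10 counts each over the 6 libraries, and 6 of the 12 were silent. Their counts added up to 42. The next longest stretches of this kind held 4 genes. This stretch was picked after its values were seen. The silent genes in it were Aterreus0G068630, Aterreus0G068670, Aterreus0G068690 and the run of 3 described above. The genes between them had 4 to 10 counts each, spread over different libraries: Aterreus0G068660 had 4 counts in control 1 only, and Aterreus0G068650 had 3 counts in metal 1 and 6 in metal 2 only. Below the stretch the level changed within a few genes. Aterreus0G068540, 9 numbers before its start, was at a mean of 471 FPKM, with 43107, 38888 and 45710 counts in metal 1, 2 and 3 and 23867, 42144 and 18580 counts in controls 1, 2 and 3. Above it, the first gene with more than 100 counts in all was Aterreus0G068780, at a mean of 2.14 FPKM.

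**Figure D5:**
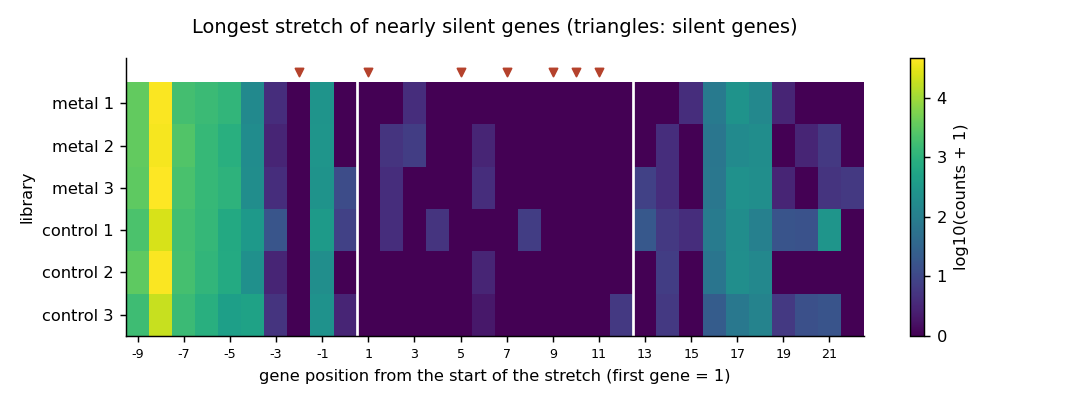
Counts as log10(counts + 1) in each library for the 12-gene stretch of nearly silent genes, bounded by white lines, and for 10 genes on either side, with metal libraries above controls and triangles over silent genes. The stretch is dark in all 6 libraries, with 42 counts in all, and the bright column on the left is Aterreus0G068540 at a mean of 471 FPKM.

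Windows rich in silent genes were few. Of all windows of 20 consecutive numbers, 60.4% held no silent gene and 26.7% held 1, while 12 windows (0.111%) held 7, the highest number. They lie in 2 places, and the first window of each is given here. In Aterreus0G016520 to Aterreus0G016710, the 13 detected genes had a median of 0.156 FPKM and a highest value of 6.86 FPKM. In Aterreus0G068540 to Aterreus0G068730, the 13 detected genes had a median of 0.0958 FPKM and a highest value of 471 FPKM. At the end of the numbering, Aterreus0G107640 to Aterreus0G107830 held 6 silent genes, and 13 of its 14 detected genes were under 1 FPKM. Another window with 6 silent genes, Aterreus0G024740 to Aterreus0G024930, was less quiet. Of its 14 detected genes only 5 were under 1 FPKM, with a median of 3.15 FPKM and a highest value of 52.4 FPKM.

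Silent genes also stood between well expressed ones. Of the 256 silent genes with detected genes on both sides, 65 (25.4%) had both neighbours under 1 FPKM and 22 (8.59%) had both at 10 FPKM or more. Among 9893 detected genes with detected neighbours, these shares were 7.93% and 25.7%. The 3 silent genes with the highest CPM in the lower of their neighbours were Aterreus0G092780, Aterreus0G047860 and Aterreus0G092070, each at 0 counts in all 6 libraries. Aterreus0G092780 stood between Aterreus0G092770, at 76.0, 75.5 and 72.9 FPKM in metal 1, 2 and 3 and 106, 67.2 and 175 FPKM in controls 1, 2 and 3, and Aterreus0G092790, at a mean of 234.5 FPKM. In both neighbours controls 1 and 3 were the highest libraries, and control 2 was near the metal libraries. Aterreus0G047860 stood between Aterreus0G047850 and Aterreus0G047870, at means of 55.8 and 118.8 FPKM. Aterreus0G092070 stood between Aterreus0G092060 and Aterreus0G092080, at means of 53.9 and 54.9 FPKM, which are percentiles 83.6 and 83.9 of the detected annotated genes.

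The salts could not be tested on the silent genes, which have no counts, but the genes beside them could be tested. In the fit of all features, the quasi-likelihood test of edgeR, adjusted by Benjamini-Hochberg, called 0 of the 392 tested genes beside a silent gene in either direction. Over all 9698 features that passed its filter on low counts it also called 0, which is 0% of those tested. Shares of all features given below are likewise of those tested. At an unadjusted edgeR p under 0.05, 5 of the 392 had a higher level in metal libraries and 37 a lower one, against 180 and 655 of the 9698 features tested. DESeq2 called 0 genes beside a silent gene as rising and 6 of 463 (1.30%) as falling, where it called 0.0956% of all features as rising and 1.30% as falling. At an unadjusted DESeq2 p under 0.05, 10 genes beside a silent gene were higher and 51 lower, against 285 and 851 of all features. The numbers tested in DESeq2 were 463 and 10461. The other 171 genes of the 563 beside a silent gene were too low for the edgeR test, so the tested ones are the more abundant part.

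Without control 2 the comparison gave calls. The edgeR test on the other 5 libraries called 15 rising and 51 falling among 413 tested genes beside a silent gene, 3.63% and 12.3%. Over all 9935 features tested the shares were 6.56% rising and 10.2% falling. DESeq2 without control 2 called 41 rising (8.74%) and 73 falling (15.6%) of 469 tested genes beside a silent gene, against 10.9% and 12.0% of all features. In both tools the share rising was below and the share falling above that of all features, and the difference in shares was not itself tested. The falling shares were close when edgeR was run on these 5 libraries without its filter on low counts. It then called 14 rising (2.50%, against 5.55% of all features) and 49 falling (8.73%, against 8.31%). With the filter kept and metal 1 left out as well as control 2, edgeR called 4 rising (0.985%, against 1.80% of all features) and 22 falling (5.42%, against 3.68%). Without metal 2 it called 4 rising (0.983%, against 2.4%) and 25 falling (6.14%, against 4.72%). Without metal 3 it called 6 rising (1.48%, against 2.6%) and 34 falling (8.37%, against 5.33%). Fits that also leave out a control keep 1 control. Without control 1, 28 rose (6.47%, against 10.1%) and 53 fell (12.2%, against 9.90%), and without control 3, 33 rose (7.47%, against 9.56%) and 56 fell (12.7%, against 10.5%). The median level of the genes beside a silent gene was 2.10, 2.04 and 2.36 CPM in metal 1, 2 and 3 and 3.03, 2.03 and 2.99 CPM in controls 1, 2 and 3. Controls 1 and 3 thus had the highest medians, and control 2 the lowest. For the other detected genes the medians were 15.95 to 16.2 CPM in the metal libraries and 15.5 to 17.2 CPM in the controls.

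The neighbours with the smallest p in that comparison changed strongly next to a gene that stayed at 0. Aterreus0G029270, beside the silent Aterreus0G029280, was at 3.99, 3.53 and 4.73 FPKM in metal 1, 2 and 3 and at 25.2, 5.16 and 31.0 FPKM in controls 1, 2 and 3. Its log2 fold change without control 2 was -2.65 ± 0.19 (SE; edgeR adjusted p = 0.000269), and with all 6 libraries the edgeR adjusted p was 0.568. Aterreus0G027360, beside the silent Aterreus0G027370, was at 4.40, 4.53 and 5.29 FPKM in metal 1, 2 and 3 and at 31.2, 5.05 and 49.0 FPKM in controls 1, 2 and 3. It fell by 2.95 on the log2 scale without control 2 (SE 0.22; edgeR adjusted p = 0.000328). Of those that rose, Aterreus0G054430, beside the silent Aterreus0G054420, was at 8.77, 7.24 and 10.3 FPKM in metal 1, 2 and 3 and at 1.96, 7.84 and 1.65 FPKM in controls 1, 2 and 3. Its log2 fold change without control 2 was 2.39 ± 0.26 (SE; edgeR adjusted p = 0.00157). Aterreus0G034970, beside the silent Aterreus0G034980, was at 17.6, 14.3 and 16.5 FPKM in metal 1, 2 and 3 and at 3.31, 14.1 and 5.89 FPKM in controls 1, 2 and 3, with a log2 fold change of 1.94 ± 0.26 without control 2 (SE; edgeR adjusted p = 0.00374). In each of these 4 genes control 2 was nearer to every metal library than to control 1 or 3. Leaving control 2 out was a choice made with the results known, and the adjusted p-values do not allow for it.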

How the data were processed

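RNA-seq counts per gene and FPKM values were deposited for 6 libraries of A. terreus mycelia, 3 metal and 3 control, grouped by sample title. The authors deposited raw counts, and FPKM values scaled by gene length and depth; TopHat2 and DESeq are named in the submitters' processing notes. Not given in the sources used here: counter, strand setting, genome build, annotation and FPKM formula. There were 0 columns of other samples. No sequence or gene name could be attached to the identifiers.

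Silent genes, runs, gaps and distances were counted in Python 3.11.15. Means over permuted placements are exact expressions, with no resampling and no p-value. Thinned numbers are hypergeometric expectations. Levels are means over libraries; CPM used TMM scaling. Features of the whole table that passed filterByExpr were tested in edgeR 4.0.16 (R 4.3.3): TMM, robust quasi-likelihood F test, Benjamini-Hochberg threshold 0.05, no block. DESeq2 1.42.0 and limma 3.58.1 on log2(FPKM + 1) were alternatives; features to which DESeq2 gave no adjusted p are not counted as tested. The edgeR script was first tested on simulated data. Named genes are the first and last of the 5 longest runs with their flanks, the 3 silent genes between the most abundant neighbours, the 2 genes per group with the highest count in 1 library only, and the 2 neighbours per direction with the smallest p. Further genes are named where the text says so. The members and lists were chosen with earlier results of these data known.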

Additional observations from a re-analysis of the deposited data

How the results depend on the processing

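The number of silent genes followed the limit set on counts: 376 with at most 1 count in all, 526 with at most 3 and 845 with at most 10, and 329 by FPKM, where 1 gene was counted but listed at 0. Leaving out each library gave 349 to 388 genes. The share of silent genes with a silent neighbour was 35.0% with at most 10 counts (12.8% for the other genes), and 21.4% to 26.5% without each library. The longest run was 12 with at most 10 counts, and 3 to 5 without each library, with 5 only without control 1. The median level beside a silent gene was 1.53 in FPKM, which is another unit, and 2.47 to 2.80 CPM without each library. The difference in genes at 0 stayed negative in every setting (-242.3 to -108.8 without each library). Requiring 3 or more counts left 12 genes silent in controls only. At 1 count or more, 27 genes were silent in controls only and 6 in metal only. At that limit, leaving out each library gave 40 to 65 and 11 to 26 genes, since fewer libraries must agree. DESeq2 called 10 rising and 136 falling features, 6 of the falling beside a silent gene; the cause was not tested. Without each library edgeR called 0 to 652 rising and 0 to 1009 falling features, and 0 to 15 rising and 0 to 51 falling beside a silent gene, above 0 only without control 2. Without control 2, neighbours up to 3 numbers away gave 69 rising (5.56%, against 6.56% of all features) and 152 falling genes (12.3%, against 10.2%), DESeq2 41 rising (8.74%, against 10.9%), and a further library left out 4 to 33 rising (0.983% to 7.47%, against 1.80% to 10.1%) and 22 to 56 falling (5.42% to 12.7%, against 3.68% to 10.5%). The fit with the replicate block called 0 genes rising and 0 falling. Same-numbered libraries had correlations of their deviations of 0.0866, 0.209 and 0.187 and libraries of different numbers -0.361 to 0.302, so the number was not read as a pairing.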

Other observations

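Some genes were at 0 in 1 library and had a count in each of the other 5, at levels that differed widely. The genes named here were chosen after their values were seen, as the gene with the highest total for each such library. For metal 2, control 1 and control 3 these were Aterreus0G068260, Aterreus0G096320 and Aterreus0G011540, with totals of 763, 444 and 610 counts. Those for the other libraries follow with their counts. Aterreus0G003220 had 0, 2 and 13 counts in metal 1, 2 and 3 and 4168, 141 and 2621 counts in controls 1, 2 and 3, while the genes on either side averaged 0.709 and 0.654 FPKM. Aterreus0G089460 had 23, 39 and 17 counts in metal 1, 2 and 3 and 59, 0 and 1901 counts in controls 1, 2 and 3. Aterreus0G094680 had 474, 737 and 0 counts in metal 1, 2 and 3 and 227, 539 and 58 counts in controls 1, 2 and 3, so that 1 metal library had no count of a gene with 58 or more counts in each of the other 5. The number of genes at 0 in a single library and detected in the other 5 was 92, 16 and 22 for metal 1, 2 and 3 and 49, 104 and 128 for controls 1, 2 and 3.

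The numbers 3201 to 3400 held 8 silent genes and had the lowest median level of the bins of 200, 1.20 FPKM over their detected genes. The bin with the most silent genes, 18 at numbers 2401 to 2600, had a median of 6.91 FPKM. These are single bins. Over the 12 full bins with 10 or more silent genes, the bin medians had a median of 4.53 FPKM (1.48 to 10.5). Over the other 41 full bins it was 9.38 FPKM (1.20 to 20.98).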
